A study of Homo sapiens with 18 samples.

Results

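The HOX genes described here are the 39 rows of the count table whose symbols name a member of the HOXA, HOXB, HOXC or HOXD cluster, out of 28266 gene rows in all. They comprise 11 HOXA, 10 HOXB, 9 HOXC and 9 HOXD genes, found by symbol alone. No measured value entered this rule, but earlier results of these data were known when the members and the gene lists used below were chosen. HOX genes encode homeodomain transcription factors that lie in 4 clusters on chromosomes 7 (HOXA), 17 (HOXB), 12 (HOXC) and 2 (HOXD). Within a cluster they are numbered by paralogue group from the 3′ end, and in the embryo the low-numbered genes are switched on earlier and further towards the head than the high-numbered ones. Adult fibroblasts keep a HOX pattern that reflects the part of the body they came from, and lung mesenchyme is known for HOXA5 and HOXB genes of the anterior and central groups. Polycomb complexes hold silent HOX genes in a repressed state, and Trithorax-type complexes keep active ones on.

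The cells were IMR90 ER:RAS, a single human lung fibroblast line carrying an oncogenic RAS fused to the hormone-binding part of the oestrogen receptor, so that 4-hydroxytamoxifen (4OHT) switches RAS on and brings about oncogene-induced senescence. The study asked how inhibitors of N-myristoyltransferase, the enzyme that attaches the lipid myristate to proteins, act on senescent and non-senescent cells. There were 6 groups of 3 libraries. Control cells received DMSO and senescent cells 100 nM 4OHT. After 7 days each kind of cell was given DMSO, IMP1088 at 300 nM, or else DDD86481 at a dose of 1.5 µM, for 3 days and was collected on day 10. All groups carry the transgene, and 4OHT and RAS activation cannot be told apart, since no group received 4OHT without the transgene. The labels do not say what sets the 3 libraries of a group apart. The study describes its replicates of these treatments as independent experiments, and the p-values measure the spread between these libraries.

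Total counts ranged from 16143716 to 23189950 per library, and 3 counts, taken as the detection floor, corresponded to 0.121 to 0.187 CPM (the standard count-per-million unit, with library sizes scaled by edgeR's TMM method). Control (DMSO) replicate 3 stood apart from the other control (DMSO) libraries, with a score of 57.3 on principal component 3 against 14.8 and 27.8. The HOX calls that changed when it was left out are given. Fibroblast markers (11 of 11 tested, summed level 17374 CPM or more in every library) were high as a sum. In senescent (DMSO) against control (DMSO) cells 8 of them were lower, 1 higher and 2 not called. DCN went from 3042 ± 226 to 7.73 ± 0.288 CPM, LUM from 314 ± 21.4 to 8.39 ± 1.01 and COL3A1 from 3701 ± 620 to 296 ± 47.9. VIM went the other way, from 5035 ± 432 to 11681 ± 374 CPM. SFTPC and NKX2-1, which mark lung epithelium, had 0 counts in every library. The leukocyte marker PTPRC had at most 7 counts and the endothelial gene CDH5 at most 33. The epithelial gene EPCAM had at most 29 counts and the endothelial gene PECAM1 at most 50. Of the tested markers, 3 of 4 epithelial ones were lower in senescent (DMSO) cells, 4 of 5 endothelial ones higher and 1 lower, and 4 of 5 smooth muscle and pericyte ones lower. Summed epithelial markers went from 104 to 148 CPM to 34.3 to 39.1 CPM, and endothelial ones from 31.9 to 55.4 CPM to 35.9 to 44.8 CPM. Summed leukocyte markers, of which 1 of 2 tested was higher, moved too, from 15.4 to 20.3 CPM in control (DMSO) to 119 to 150 CPM in senescent (DMSO) cells, and almost all of it was CD68, a lysosomal protein gene (17.5 ± 2.43 and 132 ± 15.8 CPM, SD, n = 3). Summed smooth muscle and pericyte markers went from 505 to 573 CPM to 314 to 359 CPM, and the part of these markers in the HOX results was not tested.

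Control (DMSO) cells expressed an anterior and central HOX code carried mainly by HOXB and HOXA. The 10 HOXB genes summed to 341, 359 and 409 CPM in the 3 libraries, the 11 HOXA genes to 94.3, 100.2 and 98.8 CPM, the 9 HOXC genes to 8.71, 7.85 and 9.50 CPM, and the 9 HOXD genes to no more than 0.0995 CPM. HOXB therefore held 77.6% ± 1.29 of all HOX counts, HOXA 20.6% ± 1.31 and HOXC 1.83% ± 0.140 (SD, n = 3). By position, groups 1 to 3 held 38.8% ± 2.09, groups 4 to 8 held 61.0% ± 2.06, and groups 9 to 13 held 0.223% ± 0.0574.

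Of the 39 members, 20 passed the filter on low counts and were tested: 8 HOXA, 8 HOXB, 4 HOXC and no HOXD gene. The filter keeps a gene that is high in any group, so these 20 are not a neutral sample. The other 19 stayed at or near the floor. HOXB1, HOXD1, HOXD3, HOXD4, HOXD9, HOXD10 and HOXD11 had 0 counts in all 18 libraries, which allows up to the floor in each. HOXA13, HOXB13, HOXC10, HOXC11, HOXC12, HOXC13, HOXD12 and HOXD13 had at most 2 counts in any library. HOXA9 reached 4 counts, HOXD8 reached 6, HOXC5 reached 10 and HOXA10 reached 13, the last in 1 library of senescent cells given DDD86481, where the other 2 libraries of the group had 2 each. HOXD8 had 0 to 2 counts in every control and senescent (DMSO) library, 2 to 3 in senescent cells with IMP1088 and 2 to 6 with DDD86481.

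**Figure D1:**
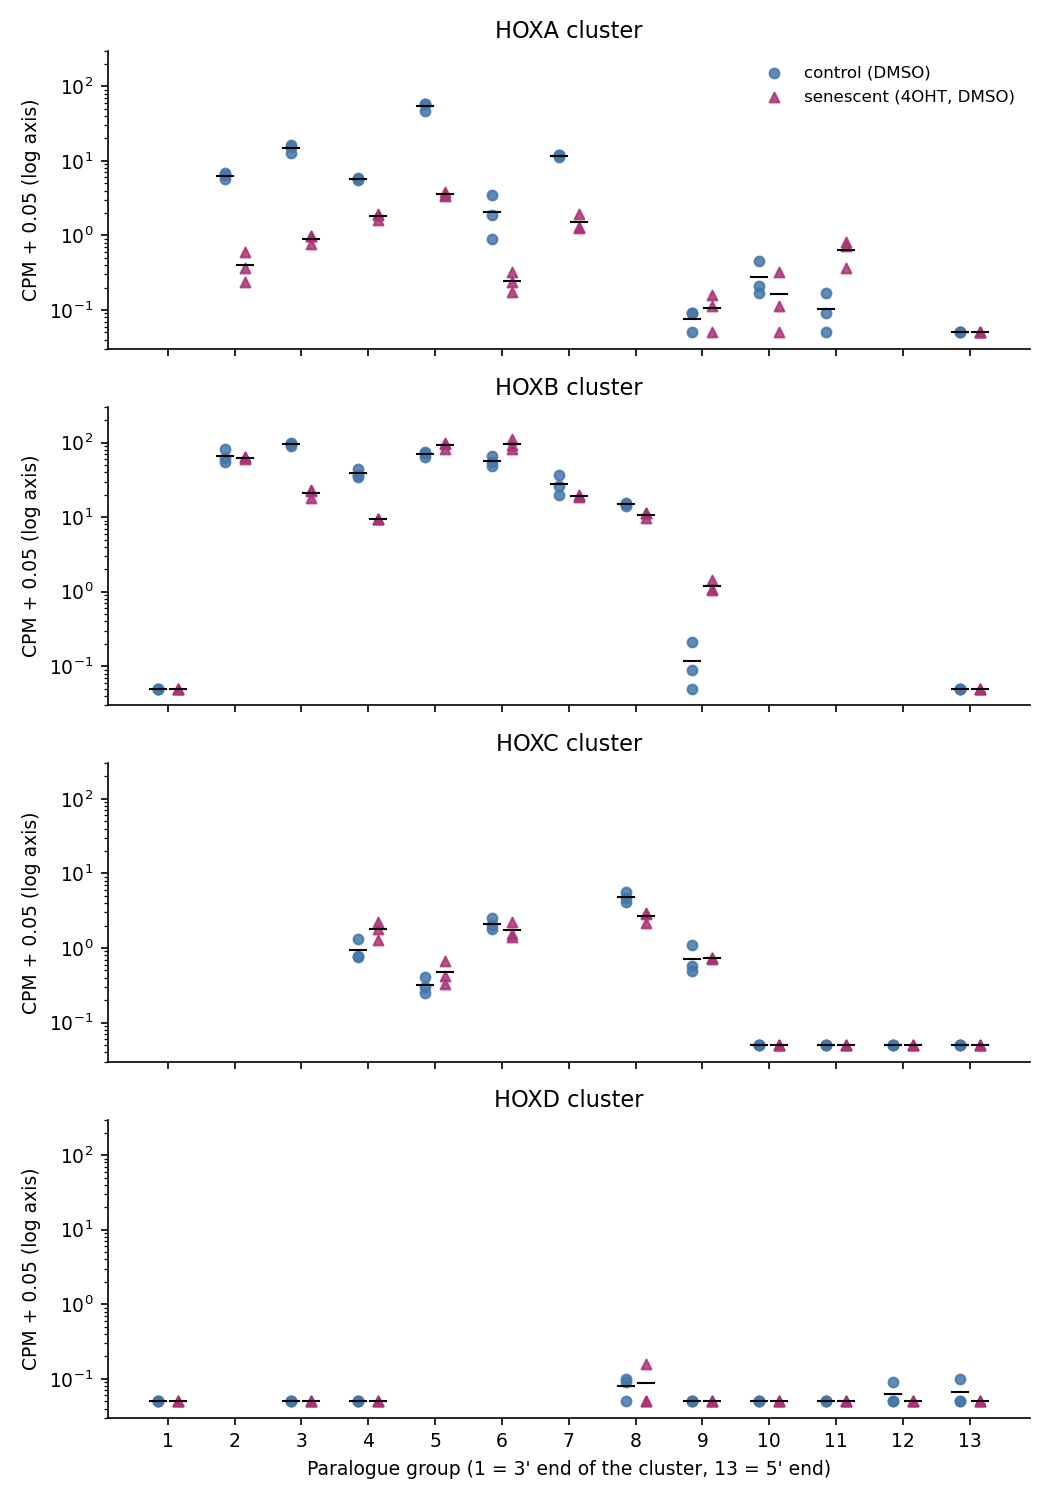
Level of the HOX genes reported here in the control (DMSO, circles) and senescent (4OHT then DMSO, triangles) libraries, as CPM plus 0.05 on a log axis, against its paralogue group, with 1 panel for each cluster, 1 point for each library and a bar at the group mean. The HOXA genes of groups 2 to 7 sit lower in senescent cells, and HOXB2 stays close to its control level. HOXB5 and HOXB6 are higher and HOXB7 and HOXB8 lower, each by less than 2-fold. The HOXD panel is empty above 0.2 CPM.

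Levels of different genes were compared per kilobase of exon. In control (DMSO) cells HOXB5, which patterns the branching lung, was highest at 38.1 ± 3.10 CPM per kb, followed by HOXA5, which is needed for normal lung and diaphragm formation in the mouse, at 31.7 ± 3.61 CPM per kb. HOXB2, a hindbrain patterning gene, followed at 26.96 ± 5.47 CPM per kb, HOXB6 at 21.8 ± 3.49, HOXB4, known for expanding blood stem cells, at 19.2 ± 2.54, HOXB7 at 18.3 ± 5.80 and HOXB3 at 12.7 ± 0.614 CPM per kb. The mean ± SD ranges of each neighbouring pair in this list overlapped. HOXB8 (6.17 ± 0.292), HOXA7 (4.83 ± 0.212) and HOXA3 (3.45 ± 0.430 CPM per kb) came next without overlap between HOXB3, HOXB8, HOXA7 and HOXA3. With coding length in place of exon length HOXB5 stayed first, HOXB6 and HOXB3 took places 2 and 3, and HOXA5 moved from place 2 to place 4.

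In senescent (DMSO) cells the order was different. HOXB5 (49.9 ± 4.82), HOXB6 (36.8 ± 5.87), HOXB2 (25.5 ± 0.788) and HOXB7 (12.7 ± 0.467 CPM per kb) led, with no overlap between neighbours. HOXA5 stood at place 8 with 2.04 ± 0.129 CPM per kb. By coding length HOXB6 and HOXB5 exchanged places 1 and 2, and HOXB2 and HOXB7 kept places 3 and 4.

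In senescent cells the HOXA sum was far lower than in control cells, and the HOXB sum was close to the control range. The HOXA sum was 12.3, 10.3 and 11.9 CPM in the senescent (DMSO) libraries, 0.118 times that of control (DMSO) cells, and no library came near the control range. The HOXB sum was 282, 317 and 339 CPM, a ratio of 0.847, and its highest library lay just under the lowest control library. The HOXC sum was 7.22, 7.78 and 6.32 CPM, a ratio of 0.818. HOXB then held 94.3% ± 0.701 of HOX counts and HOXA 3.50% ± 0.512. In a mixed population, fewer cells that express a gene and less RNA per cell cannot be told apart.

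Across the 20 tested members, 5 were higher and 11 lower in senescent (DMSO) than in control (DMSO) cells by edgeR's quasi-likelihood test at a Benjamini-Hochberg adjusted p under 0.05. These shares stand beside 32.5% of all 14341 tested genes called higher and 36% called lower, so a large part of the transcriptome differed. The median absolute log2 fold change was 1.29 over the 20 members and 0.62 over all tested genes. It was 3.29 over the 8 HOXA genes, and 0.64 and 0.59 over the HOXB and HOXC genes, near that of all genes. The HOXA value counts the rise of HOXA11 (3.235) as a change, and the signed HOXA median was -3.17. The value over the 20 members also counts the rise of HOXB9 (3.87). Both rises were fitted from a control level under the floor. When edgeR tested for a change beyond 2-fold, 8 members were lower (HOXA2 to HOXA7, HOXB3 and HOXB4), beside 12.5% of all genes. HOXA11 and HOXB9 were called higher beyond 2-fold, as were 9.71% of all genes, but both passed the count filter only through groups in which they were high, so nothing is read from their number.

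**Figure D2:**
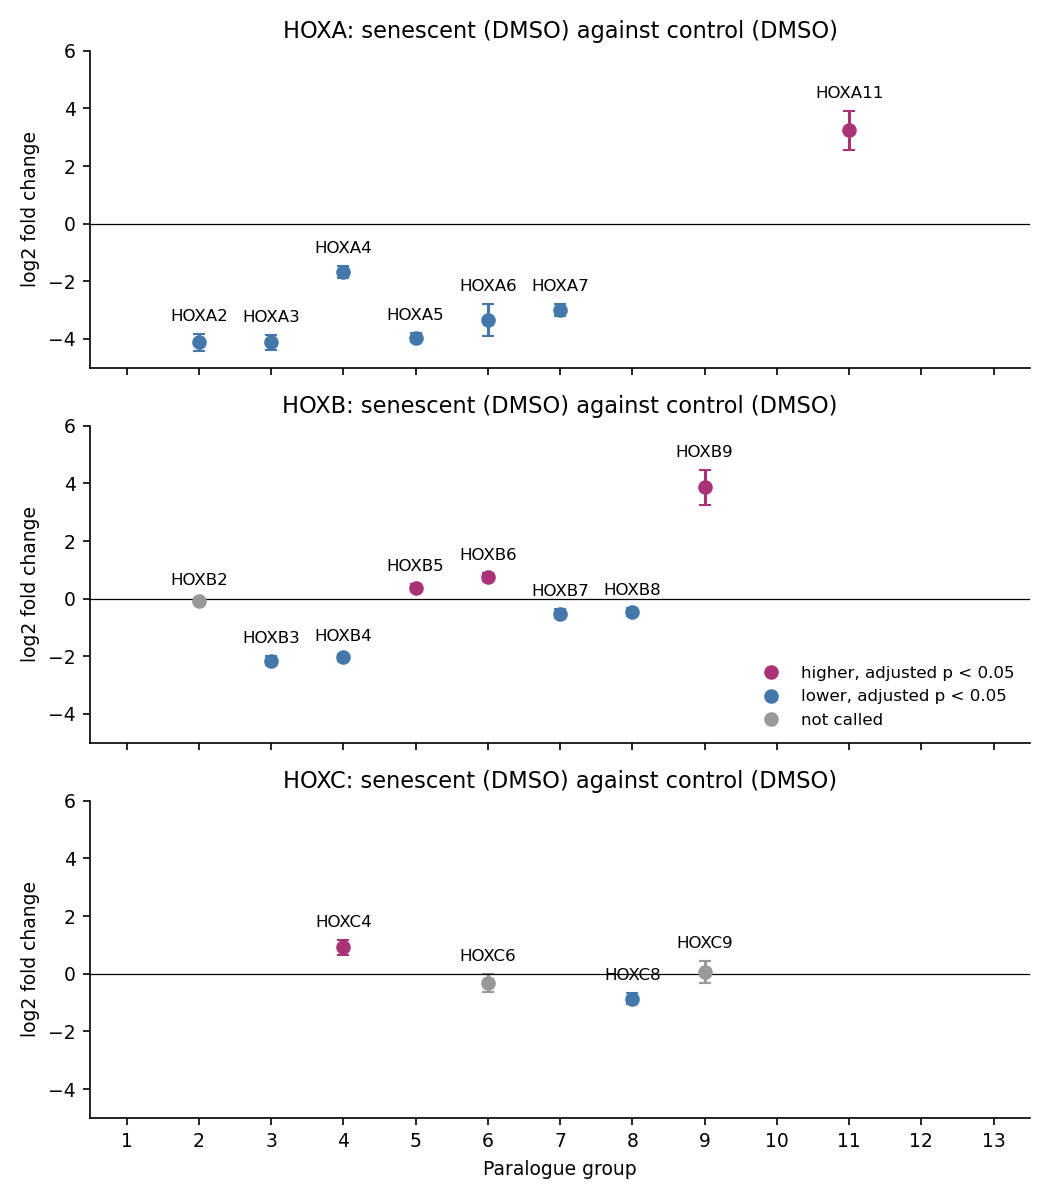
Log2 fold change of the tested HOX genes reported here in senescent (DMSO) against control (DMSO) cells, with its standard error, by paralogue group; colour gives the call at an adjusted p under 0.05. The 6 HOXA genes of groups 2 to 7 lie between -1.67 and -4.12, and HOXB3 and HOXB4 near -2. The fitted values of HOXA11 and HOXB9, both above 3, rest on a control level under the floor.

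The fall of HOXA covered a block of 6 neighbours, HOXA2 to HOXA7, whose summed level went from 91.5 to 97.3 CPM in control to 7.59 to 8.83 CPM in senescent cells. HOXA5 read 47.3, 57.7 and 58.4 CPM in control and 3.77, 3.36 and 3.41 CPM in senescent libraries, a 15.5-fold fall (log2 fold change -3.95 ± 0.16, adjusted p = 9.48e-15). Values given in this form are log2 fold changes with their standard error. HOXA3, which patterns the pharyngeal pouches that form thymus and parathyroid, read 16.4, 15.4 and 12.8 CPM against 0.926, 0.934 and 0.714 CPM (-4.12 ± 0.26, adjusted p = 1.75e-11). HOXA2, which sets the identity of the second pharyngeal arch, read 6.77, 5.71 and 6.32 CPM against 0.185, 0.311 and 0.549 CPM, or 3, 5 and 10 counts (-4.11 ± 0.29, adjusted p = 1.03e-10). For all of HOXA2, HOXA3 and HOXA5 the groups lay far apart.

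HOXA7, a gene of the thoracic axial skeleton, went from 11.8, 11.1 and 12.04 CPM to 1.91, 1.25 and 1.21 CPM (-2.999 ± 0.196, adjusted p = 2.94e-11). HOXA4 fell least in the block, from 5.84, 5.63 and 5.42 CPM to 1.91, 1.56 and 1.81 CPM (-1.67 ± 0.20, adjusted p = 4.21e-07). HOXA6 was the least even in control cells, with 3.39, 1.85 and 0.846 CPM, the lowest in the replicate that stood apart. It had 0.123, 0.187 and 0.275 CPM, or 2, 3 and 5 counts, in senescent cells (-3.34 ± 0.54, adjusted p = 1.64e-05). On the 5′ side of the block HOXA9 and HOXA10 were near the floor in both groups.

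Starts of the genes in the block that have a single entry in RefSeq's promoter table are shown because these genes fell together. HOXA11 is shown beside them, but at 3, 1 and 0 control counts it is too low to serve as a contrast. Each run is the 250 bases before the annotated start on the minus strand of chromosome 7 (RefSeq, GRCh38.p14), 5′ to 3′. Capitals mark matches on either strand to CCAAT, to TGATNNAT (a PBX-HOX site), to TGACAG (a MEIS site), to TATAAA or to TGANTCA (an AP-1 site). TGATNNAT and TGANTCA can share letters, and a match is only a match of letters.
HOXA2 (chr7:27102684-27102933): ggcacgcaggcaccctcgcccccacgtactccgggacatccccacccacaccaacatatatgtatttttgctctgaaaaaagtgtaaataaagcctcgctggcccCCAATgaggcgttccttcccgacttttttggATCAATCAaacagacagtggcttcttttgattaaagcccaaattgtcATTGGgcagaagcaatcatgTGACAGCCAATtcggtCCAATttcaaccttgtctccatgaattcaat
HOXA4 (chr7:27130758-27131007): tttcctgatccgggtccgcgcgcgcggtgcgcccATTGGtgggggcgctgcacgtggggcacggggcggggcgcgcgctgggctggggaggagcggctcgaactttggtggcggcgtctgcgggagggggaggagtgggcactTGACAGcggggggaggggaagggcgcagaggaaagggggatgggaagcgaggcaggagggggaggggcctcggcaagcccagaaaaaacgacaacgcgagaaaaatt
HOXA6 (chr7:27147775-27148024): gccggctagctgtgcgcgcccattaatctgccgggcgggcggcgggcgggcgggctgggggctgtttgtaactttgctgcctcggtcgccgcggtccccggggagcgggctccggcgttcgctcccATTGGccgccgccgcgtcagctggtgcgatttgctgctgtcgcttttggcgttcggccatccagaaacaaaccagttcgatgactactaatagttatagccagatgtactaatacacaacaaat
HOXA7 (chr7:27156676-27156925): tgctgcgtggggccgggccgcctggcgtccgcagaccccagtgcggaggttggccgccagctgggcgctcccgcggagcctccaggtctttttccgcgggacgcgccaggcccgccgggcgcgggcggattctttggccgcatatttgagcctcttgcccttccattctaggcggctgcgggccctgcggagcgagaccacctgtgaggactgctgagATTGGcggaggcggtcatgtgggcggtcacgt
HOXA11 (chr7:27185233-27185482): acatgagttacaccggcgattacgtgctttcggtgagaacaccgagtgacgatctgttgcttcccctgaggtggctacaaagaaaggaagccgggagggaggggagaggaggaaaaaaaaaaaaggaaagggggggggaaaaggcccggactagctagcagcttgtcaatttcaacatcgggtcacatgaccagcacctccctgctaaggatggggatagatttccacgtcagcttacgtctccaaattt

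CCAAT was present before HOXA2 (4 matches), HOXA4, HOXA6 and HOXA7 (1 each) and not before HOXA11, where none of the 5 motifs occurred. Over all 18 HOX genes with a single entry, 15 held CCAAT, against 33% of 27305 promoters of the same length. Among the 15 were HOXB1, HOXD1 and HOXD10. They had 0 counts in every library and could not fall, so they are no contrast to the fallen genes. A link between CCAAT and the fall was not tested. HOXA2 also held 1 PBX-HOX site and 1 MEIS site, and HOXA4 held 1 MEIS site. Over the 18 entries, 3 held the PBX-HOX letters (6.69% of all promoters), 2 the MEIS letters (13.1%), 2 TATAAA (11.1%) and 0 the AP-1 letters (6.6%). HOXC4 and HOXC5 share 1 start and were counted once each. The runs before HOXA4, HOXA6 and HOXA7 held 26, 27 and 28 CpG dinucleotides, those before HOXA2 and HOXA11 held 8 and 11, and the median promoter held 11.

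The antisense transcripts of the block fell with it. HOXA-AS2, which runs opposite to HOXA3, had 103, 139 and 107 counts in control and 8, 3 and 3 in senescent cells (-4.14 ± 0.35, adjusted p = 2.1e-09). HOXA-AS3, opposite to HOXA6 and HOXA7, had 44, 38 and 41 counts against 2 in each senescent library, at least 9.95-fold lower. HOXA-AS3 overlaps 62.5% of the exonic length of HOXA7 and 39.3% of that of HOXA6 in GENCODE, and HOXA-AS2 10.6% of HOXA3. The library kit marks strand, but whether the counting used it is not given in the sources used here, so reads of these pairs may not have been told apart. HOXA4 shares 47.8% of its exonic length with other annotated genes. HOXA2 and HOXA5 share no exonic base with another gene.

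In HOXB the changes differed by position. HOXB3 read 95.1, 98.5 and 89.5 CPM in control and 18.03, 22.7 and 23.02 CPM in senescent cells (-2.15 ± 0.16, adjusted p = 1.91e-10), and HOXB4 read 36.5, 34.7 and 44.3 CPM against 9.38, 9.40 and 9.51 CPM (-2.03 ± 0.12, adjusted p = 7.04e-12). HOXB2, next to them on the 3′ side, read 61.9, 55.5 and 81.3 against 60.3, 63.4 and 63.9 CPM, with overlapping groups and a 95% interval of -0.31 to 0.15. On the 5′ side the direction turned.

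HOXB5 read 64.3, 73.4 and 75.04 CPM in control and 82.7, 95.9 and 99.7 CPM in senescent cells (0.39 ± 0.11, adjusted p = 0.00465), a call that ended under upper-quartile scaling (0.23, adjusted p = 0.0884), which moved the median of all genes from -0.05 to -0.21. HOXB6 read 49.1, 54.5 and 66.8 against 82.0, 92.9 and 112 CPM (0.75 ± 0.15, adjusted p = 0.000141). These were the only HOX genes above 10 CPM that rose. HOXB8 was lower (14.1, 15.4 and 14.98 against 9.75, 11.3 and 11.2 CPM; -0.46 ± 0.14, adjusted p = 0.00515). HOXB7 was called lower (-0.52 ± 0.16, adjusted p = 0.00636), but its 19.8, 26.5 and 37.3 CPM in control overlapped the 19.3, 20.04 and 18.6 CPM of senescent cells. Without control (DMSO) replicate 3, which held the 37.3 CPM, HOXB7 was not called (-0.26, adjusted p = 0.0727).

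The antisense gene HOXB-AS3, within the middle of the cluster, went from 27.99 ± 8.60 to 9.44 ± 1.53 CPM (-1.56 ± 0.22, adjusted p = 3.2e-06), while HOXB-AS1, opposite to HOXB2, read 5.15 ± 1.84 and 4.82 ± 0.784 CPM and was not called. HOXB3 and HOXB6 share exons on the same strand, covering 5.83% of HOXB3 and 16.6% of HOXB6, so a part of their reads may be counted for either or for neither.

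Members of 1 paralogue group moved apart between the HOXA and HOXB clusters. Per library, the log2 ratio of HOXA5 to HOXB5 counts was -0.38 ± 0.052 in control and -4.71 ± 0.23 in senescent cells (SD, n = 3). The ratio of HOXA2 to HOXB2 went from -3.38 ± 0.26 to -7.48 ± 0.67, HOXA6 to HOXB6 from -4.99 ± 1.21 to -8.78 ± 0.26, HOXA7 to HOXB7 from -1.21 ± 0.44 to -3.74 ± 0.37 and HOXA3 to HOXB3 from -2.67 ± 0.13 to -4.59 ± 0.36. HOXA4 to HOXB4 alone went the other way, from -2.76 ± 0.23 to -2.41 ± 0.15. In all 6 pairs the libraries of the 2 states did not overlap, which gives a two-sided exact permutation p of 0.1, the smallest that 3 against 3 libraries allow. Of all single genes tested, 67.6% likewise had no overlap between these groups, so the 6 separations alone say little of the pairs.

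A pair of posterior genes appeared at low level. HOXB9, which patterns thoracic segments, had 4, 1 and 0 counts in control and 17, 22 and 18 counts in senescent libraries, 0.0672 ± 0.0839 against 1.14 ± 0.204 CPM. The control mean lies under the floor, so the gene was at least 8.72-fold higher. HOXA11, a limb and uterus patterning gene, had 3, 1 and 0 counts against 11, 5 and 14, at least 4.50-fold higher. Its antisense neighbour HOXA11-AS, which overlaps 27.2% of its exonic length, had at most 4 counts in either group. HOXB9 had 5 counts in all of control (DMSO), and both genes passed the count filter only through groups in which they were high. Groups 9 to 13 together went from 0.223% ± 0.0574 to 0.775% ± 0.0473 of HOX counts. Their sum went from 1.07 ± 0.363 to 2.57 ± 0.205 CPM, while that of all HOX genes fell from 476 ± 37.7 to 332 ± 27.9 CPM.

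HOXC genes were low in both states. HOXC8, which specifies brachial and thoracic identities, fell from 4.11, 4.67 and 5.52 to 2.78, 2.93 and 2.14 CPM (-0.87 ± 0.20, adjusted p = 0.000785). HOXC4 was called higher (0.91 ± 0.27, adjusted p = 0.00476), with 1.29, 0.724 and 0.697 CPM against 1.23, 2.18 and 1.76 CPM and overlapping groups. The 95% intervals of HOXC6 (-0.98 to 0.35) and HOXC9 (-0.75 to 0.84) included no change. HOXC4 shares 17.5% of its exonic length with HOXC6 on the same strand.

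**Figure D3:**
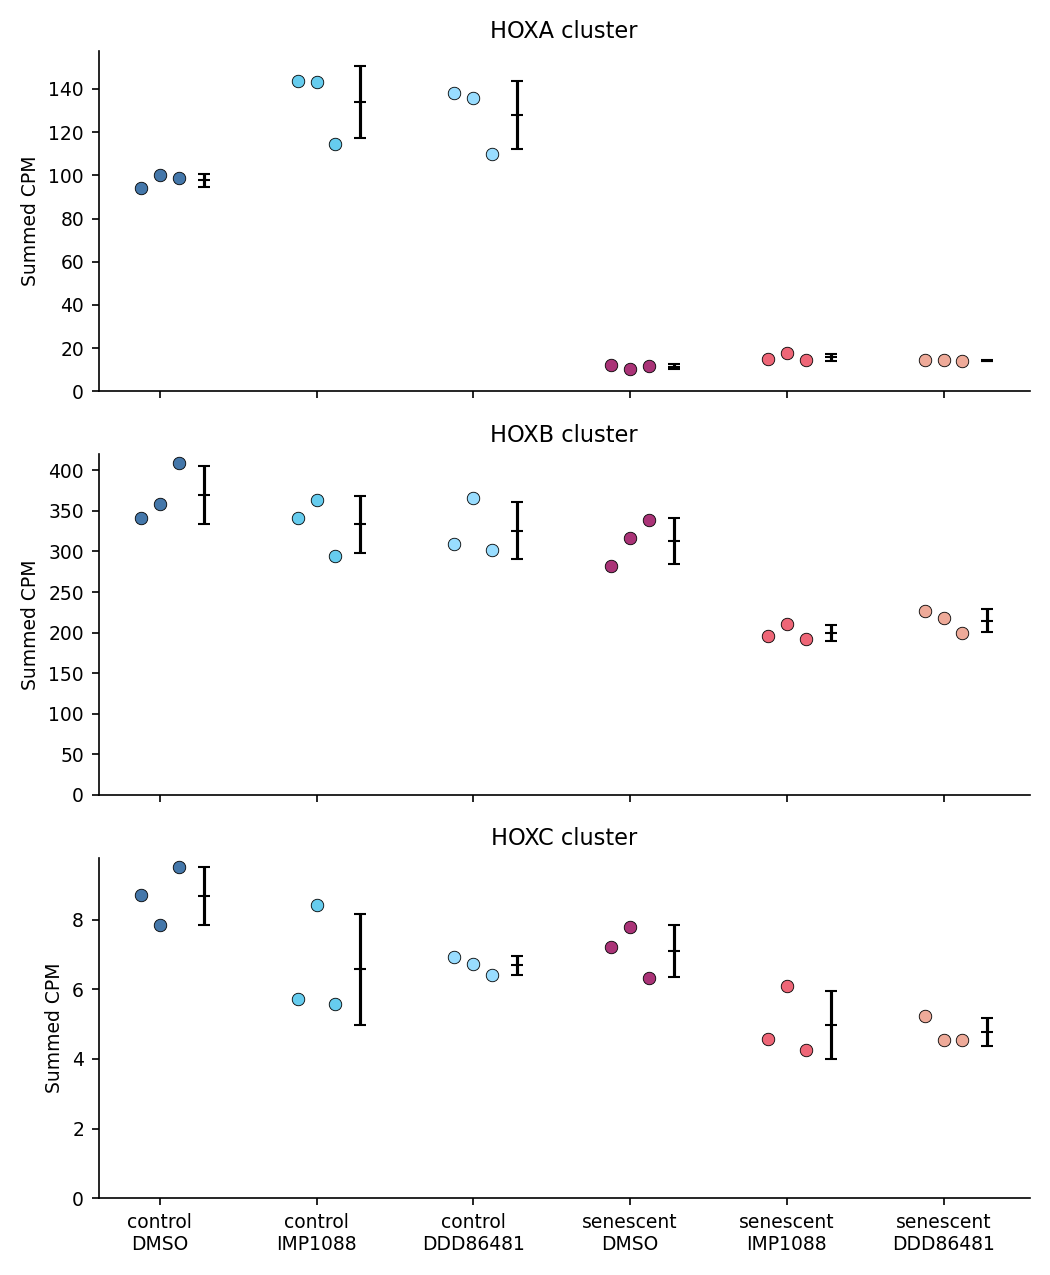
Summed CPM of the HOXA, HOXB and HOXC clusters in each of the 18 libraries, by group; bars give the mean and SD of 3 libraries. HOXA lies at 94.3 CPM or more in control and 17.6 CPM or less in senescent libraries, and HOXB is lowest in senescent cells given either inhibitor.

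The inhibitors changed the HOX pattern of senescent cells mainly within HOXB. The HOXB sum was 191.6 to 210 CPM with IMP1088 and 199 to 227 CPM with DDD86481, below the 282 to 339 CPM of senescent (DMSO) cells. The HOXA sum was 14.6 to 17.6 CPM and 13.98 to 14.5 CPM, above the 10.3 to 12.3 CPM of senescent (DMSO) cells but far from any control library. With IMP1088, 3 of the 20 members were higher and 7 lower (all genes, 20.6% and 23.9%), and with DDD86481 also 3 and 7 (20.1% and 23.1%). Both comparisons use the same senescent (DMSO) libraries. Of the 10 called with each, 9 were shared and had the same direction. The share of all genes called with both inhibitors is not given, so nothing is read from this agreement.

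HOXB5 read 50.04, 56.2 and 53.1 CPM with IMP1088 (-0.81 ± 0.11, adjusted p = 9.52e-06) and 59.5, 59.1 and 51.3 CPM with DDD86481 (-0.71 ± 0.11, adjusted p = 4.16e-05), below every control (DMSO) and senescent (DMSO) library. HOXB2 fell to 37.5, 38.8 and 34.4 CPM and to 40.7, 39.4 and 35.7 CPM (-0.76 ± 0.11 and -0.69 ± 0.11, adjusted p = 1.44e-05 and 4.24e-05). HOXB8 fell to 5.42, 5.70 and 5.89 CPM and to 5.24, 5.33 and 6.56 CPM (-0.92 ± 0.15 with each, adjusted p = 3.88e-05 and 4.64e-05). None of these libraries overlapped those of senescent (DMSO) cells. The share of all genes without such overlap is not given for the inhibitors, so the separation alone says little.

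HOXB3, already low, fell by 0.76 ± 0.17 with IMP1088 and by 0.70 ± 0.16 with DDD86481 on the log2 scale (adjusted p = 0.000839 and 0.0017). HOXB6 fell by 0.65 ± 0.15 and 0.41 ± 0.15 (adjusted p = 0.00134 and 0.0306). The second of these calls ended without senescent (DMSO) replicate 2 or 3 or without DDD86481 replicate 2 or 3, at most at an adjusted p of 0.178. HOXB4 read 9.42 ± 0.412 and 8.78 ± 0.861 CPM against 9.43 ± 0.0661 CPM, with 95% intervals of -0.27 to 0.26 and -0.37 to 0.17. HOXC8 fell by 0.98 ± 0.24 and 0.77 ± 0.23 (adjusted p = 0.00223 and 0.011), and the DDD86481 call was borderline without DDD86481 replicate 3 (adjusted p = 0.05002).

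In HOXA, HOXA5 and HOXA3 were higher with the inhibitors. HOXA5 read 5.31, 6.87 and 6.61 CPM with IMP1088 (0.83 ± 0.17, adjusted p = 0.000477) and 6.28, 5.38 and 5.95 CPM with DDD86481 (0.74 ± 0.17, adjusted p = 0.00156), each above the 3.36 to 3.77 CPM of senescent (DMSO) cells. HOXA3 read 1.53, 2.96 and 1.91 CPM (1.31 ± 0.32, adjusted p = 0.0024) and 1.15, 2.09 and 1.66 CPM (0.93 ± 0.34, adjusted p = 0.0304). The DDD86481 call for HOXA3 ended when any senescent (DMSO) library or DDD86481 replicate 2 or 3 was left out (adjusted p up to 0.155).

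HOXA7 was called lower with IMP1088 only (-0.81 ± 0.27, adjusted p = 0.0201), a call that ended without senescent (DMSO) replicate 1 (adjusted p = 0.135) or IMP1088 replicate 3 (adjusted p = 0.104). HOXA2 was called lower with DDD86481 only, at 1, 1 and 3 counts against 3, 5 and 10 (adjusted p = 0.0202), at least 2.07-fold lower. It was not called without senescent (DMSO) replicate 3 (adjusted p = 0.156) or DDD86481 replicate 1 or 2. Neither gene differed between the inhibitors after adjustment.

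HOXB9 rose most. It read 5.10, 4.19 and 4.99 CPM with IMP1088 (2.07 ± 0.33, adjusted p = 3.31e-05) and 3.88, 3.08 and 4.17 CPM with DDD86481 (1.70 ± 0.33, adjusted p = 0.000329), or 59 to 97 counts against 17 to 22 in senescent (DMSO) cells. All 6 libraries lay above every other library of the series for this gene. Groups 9 to 13 then held 2.88% ± 0.232 and 2.25% ± 0.387 of HOX counts. Their sums were 6.32 ± 0.177 and 5.25 ± 0.865 CPM, of which HOXB9 alone made up 4.76 ± 0.497 and 3.71 ± 0.563 CPM. The sums of all HOX genes were down to 220 ± 12.2 and 234 ± 14.7 CPM. HOXA11 read 0.884 ± 0.329 and 0.617 ± 0.0828 CPM against 0.586 ± 0.243 CPM and was not called.

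**Figure D4:**
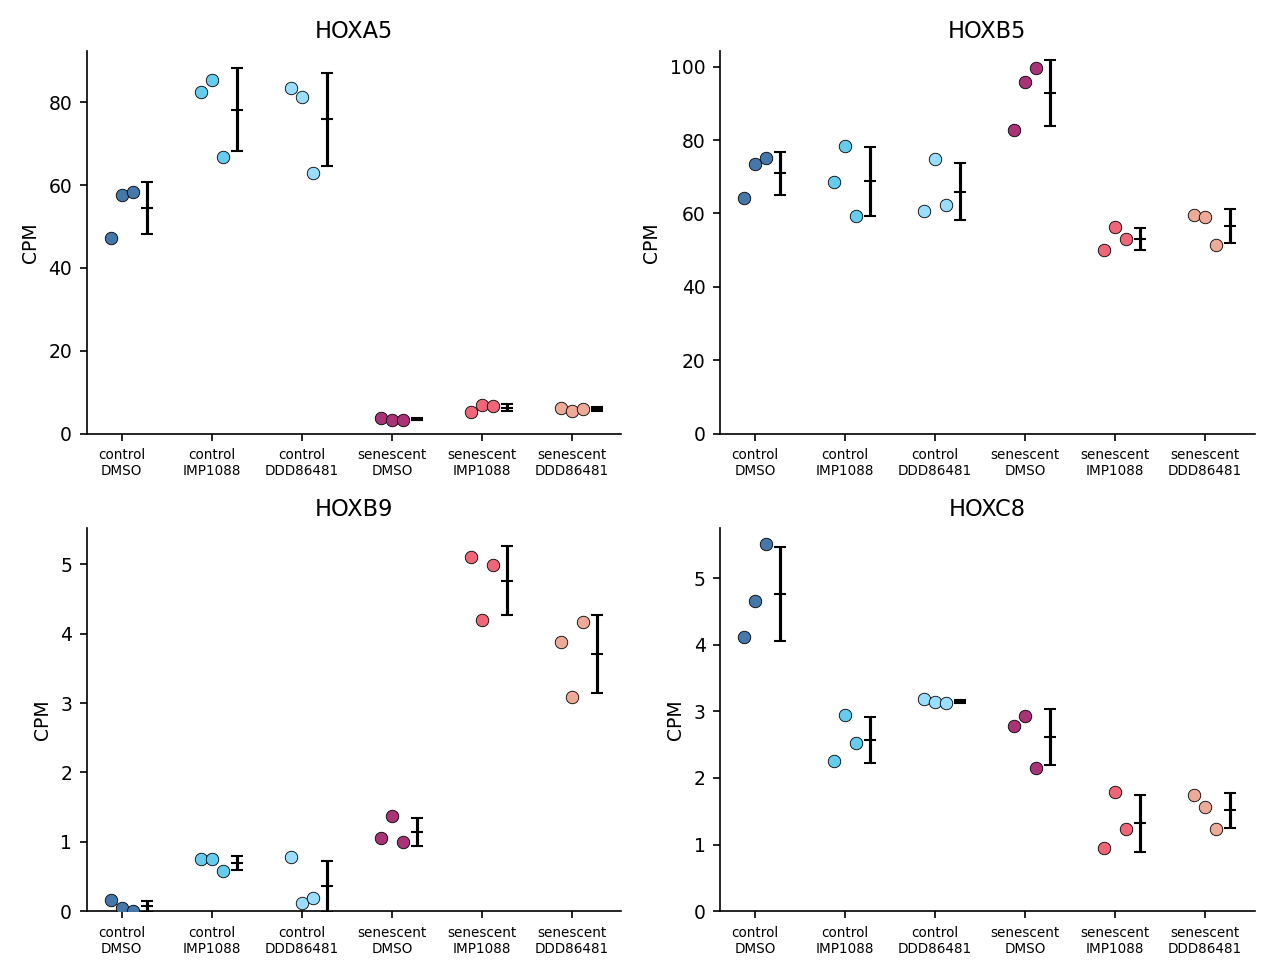
CPM of HOXA5, HOXB5, HOXB9 and HOXC8 in each library by group; bars give the mean and SD of 3 libraries. HOXA5 separates control from senescent cells, HOXB5 is highest in senescent (DMSO) cells, HOXB9 is highest in senescent cells given an inhibitor, and HOXC8 is lower with an inhibitor in both states.

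In control cells the HOXA sum was higher with the inhibitors. It was 114.5 to 143.8 CPM with IMP1088 and 109.9 to 138 CPM with DDD86481, above the 94.3 to 100.2 CPM of control (DMSO) cells, and HOXA held 28.2% ± 0.896 and 27.8% ± 2.31 of HOX counts. The HOXB sums of 295 to 364 and 302 to 366 CPM overlapped the control (DMSO) range. IMP1088 gave 4 of the 20 members as higher (all genes, 16.3%) and 3 as lower (17.4%). DDD86481 gave the same 7 members in the same directions, beside 17.8% higher and 18.7% lower over all genes. Both comparisons use the same control (DMSO) libraries, and the share of all genes called with both is not given, so nothing is read from the agreement.

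HOXA5 read 82.5, 85.3 and 66.7 CPM with IMP1088 (0.52 ± 0.12, adjusted p = 0.00283) and 83.4, 81.3 and 62.9 CPM with DDD86481 (0.48 ± 0.12, adjusted p = 0.00511). It was the only member whose call held for both inhibitors without any 1 library. HOXA3 (0.62 ± 0.18 and 0.51 ± 0.18, adjusted p = 0.0111 and 0.0307) and HOXA6 (1.04 ± 0.32 and 1.00 ± 0.33, adjusted p = 0.0173 and 0.0217) were higher. The DDD86481 call of HOXA3 ended under upper-quartile scaling (0.45, adjusted p = 0.0551). Leaving out single libraries ended the DDD86481 call of HOXA3 and of HOXA6 in 4 of 6 fits each, and the IMP1088 call in 1 and 3 of 6. HOXA6 read 3.30 to 5.32 CPM with the inhibitors, overlapping the 0.846 to 3.39 CPM of control (DMSO) cells.

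HOXB9 had 15, 17 and 12 counts with IMP1088 (at least 5.35-fold higher, adjusted p = 0.00076) and 15, 2 and 4 with DDD86481 (at least 2.77-fold higher, adjusted p = 0.0232), against 4, 1 and 0, a control mean under the floor. It passed the count filter only through groups in which it was high, so nothing is read from its place among the members called higher. The DDD86481 call ended without DDD86481 replicate 1, which held the 15 counts (adjusted p = 0.354), or without control (DMSO) replicate 2 or 3. HOXC8 fell by 0.88 ± 0.20 and 0.59 ± 0.19 (adjusted p = 0.00184 and 0.022), HOXB7 by 0.52 ± 0.16 and 0.66 ± 0.16 (adjusted p = 0.0146 and 0.00304) and HOXB2 by 0.32 ± 0.11 and 0.35 ± 0.11 (adjusted p = 0.0278 and 0.0157). The HOXC8 call for DDD86481 ended in 4 of 6 fits without 1 library, and HOXB7 with IMP1088 overlapped control (DMSO) cells.

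Without control (DMSO) replicate 3, 4 members stayed called with IMP1088 and 2 with DDD86481, beside 1951 higher and 2118 lower, and 2023 higher and 2097 lower, of 14493 genes tested in that fit. HOXB2 and HOXA6 were then called with neither inhibitor, and HOXB7 was called with DDD86481 but not with IMP1088 (-0.26, adjusted p = 0.131). HOXA3, HOXB9 and HOXC8 were no longer called with DDD86481 (adjusted p = 0.0928, 0.0761 and 0.0937). Without replicate 1 of IMP1088 3 members were called, without replicate 1 of DDD86481 2, and without control (DMSO) replicate 2 4 with DDD86481. Over all genes, fits without 1 library called 3505 to 5892 genes for IMP1088 and 3773 to 6317 for DDD86481.

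**Figure D5:**
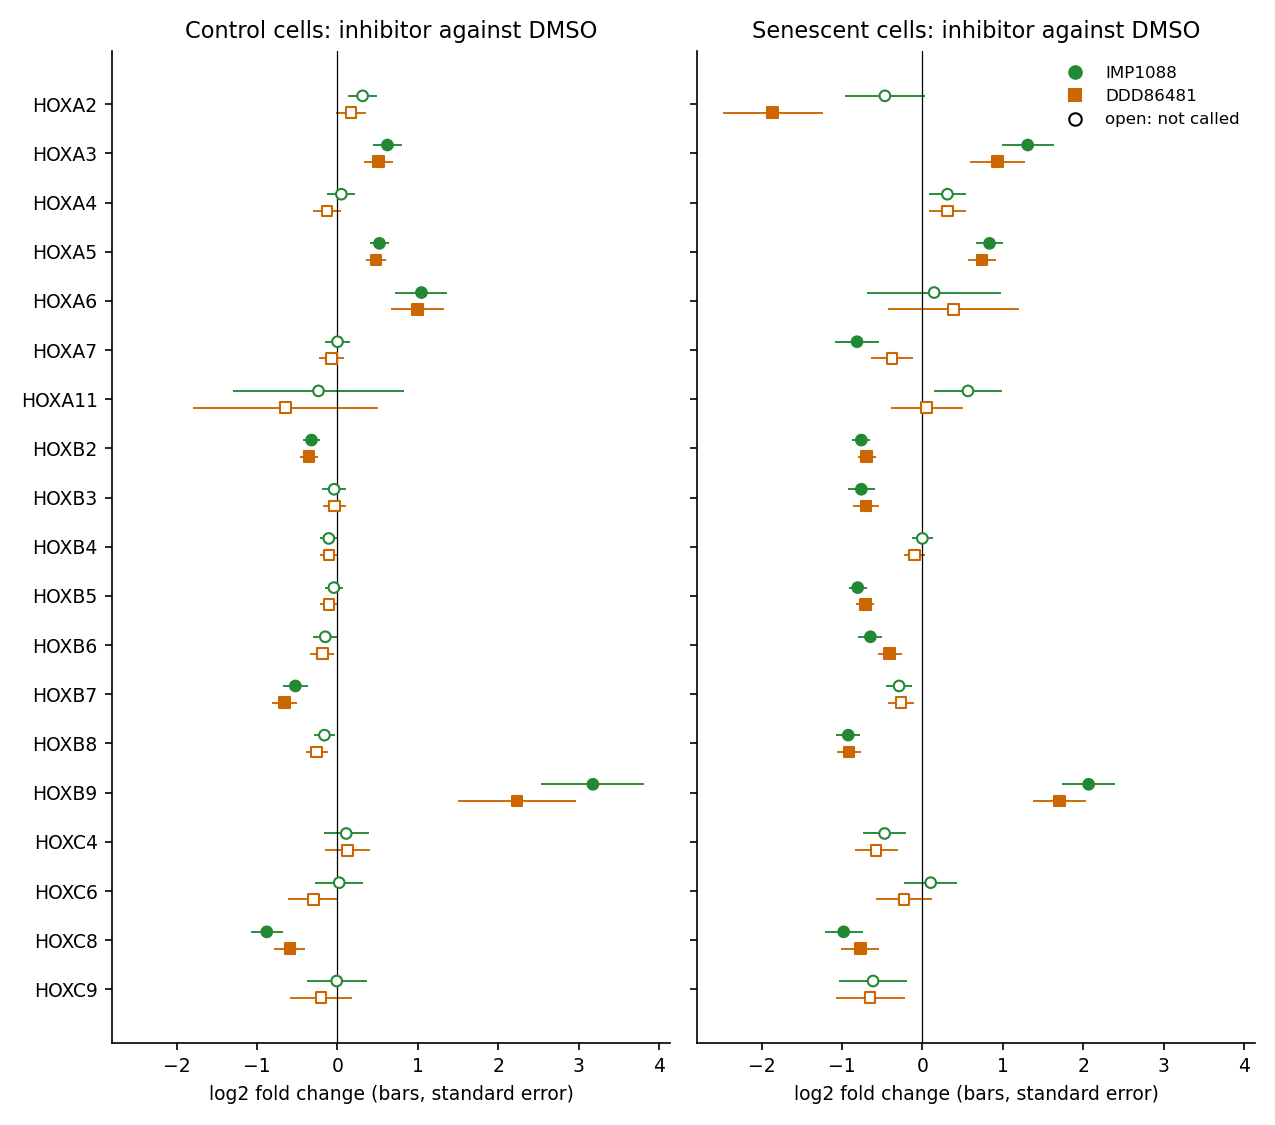
Log2 fold change with standard error of the tested HOX genes reported here for IMP1088 (circles) and DDD86481 (squares) against DMSO, in control cells (left) and senescent cells (right); filled symbols passed an adjusted p of 0.05. HOXB2, HOXB3, HOXB5, HOXB6 and HOXB8 are filled and below 0 in senescent cells, and of these only HOXB2 is filled in control cells.

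The difference between the inhibitor effects in senescent and in control cells was tested as an interaction. For IMP1088, 4 of 20 members had a lower effect in senescent cells and none a higher one (all genes, 14.2% and 12.1%). They were HOXB5 (-0.76 ± 0.16, adjusted p = 0.00181), HOXB8 (-0.76 ± 0.20, adjusted p = 0.00839), HOXB3 (-0.72 ± 0.22, adjusted p = 0.0214) and HOXB2 (-0.44 ± 0.16, adjusted p = 0.0434). With the replicate number as a block, HOXB2 was not called (adjusted p = 0.0503) and 3 members remained, nor was it called under upper-quartile scaling (adjusted p = 0.0841).

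For DDD86481 also 4 were lower and none higher (15.9% and 14.4% of all genes). They were HOXB5 (-0.61 ± 0.16, adjusted p = 0.00815), HOXB8 (-0.66 ± 0.20, adjusted p = 0.018), HOXB3 (-0.66 ± 0.22, adjusted p = 0.0286) and HOXA2 (-2.03 ± 0.65, adjusted p = 0.0239). Without control (DMSO) replicate 3, edgeR called 5 members lower and 0 higher for each inhibitor. Those added were HOXB6 for IMP1088 (-0.63, adjusted p = 0.0247) and HOXB2 for DDD86481 (-0.51, adjusted p = 0.0033). Of 14493 genes in that fit, 1782 were lower and 1433 higher for IMP1088, and 1979 and 1643 for DDD86481. The 4 interaction calls of HOXB5 and HOXB8 are the firmest: HOXB5 kept both without any 1 library, and HOXB8 lost 1, for DDD86481 without control DDD86481 replicate 2 (adjusted p = 0.0811). The DDD86481 call of HOXB8 also ended with only the groups compared (-0.62, adjusted p = 0.0578). By DESeq2, 0 members had a higher effect in senescent cells with either inhibitor, and by edgeR 0 of the members with an unadjusted p under 0.05 did. Without control (DMSO) replicate 1, however, edgeR called HOXB7 higher for DDD86481 (0.59, adjusted p = 0.0152).

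IMP1088 and DDD86481 were set side by side at their own doses, which differ, so differences in structure and in dose cannot be told apart. Between them 0 of the 20 members and 0% of all genes were called by edgeR in either state, and 0 by DESeq2. At an unadjusted p under 0.05, edgeR gave 2 members in senescent cells and 0 in control cells, and DESeq2 gave 0 and 1. The log2 difference of HOXA5 (IMP1088 minus DDD86481) had a 95% interval of -0.24 to 0.42 in senescent and -0.21 to 0.30 in control cells, and that of HOXB5 -0.33 to 0.14 and -0.17 to 0.30. For HOXA2 in senescent cells the interval ran from 0.02 to 2.77, so a large difference is within it.

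Genes that act with or on the HOX clusters were read from lists of known members, in senescent (DMSO) against control (DMSO) cells. Of 11 HOX cofactors of the TALE homeodomain class, 2 were higher and 6 lower (of all tested genes, 32.5% and 36%), with a median log2 fold change of -0.96 against -0.05 over all tested genes. MEIS1, which binds DNA together with HOX proteins, went from 82.9 ± 7.54 to 10.9 ± 1.19 CPM (-2.93 ± 0.16, adjusted p = 1.7e-12) and MEIS2 from 41.4 ± 1.82 to 12.2 ± 0.551 CPM (-1.76 ± 0.11, adjusted p = 7.9e-12). TGIF2 also fell (-1.39 ± 0.14, adjusted p = 2.2e-08).

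Of 12 genes of Polycomb repressive complex 2, 2 were higher and 4 lower (all genes, 32.5% and 36%), with a median of -0.05, so the share called lower was close to that of all genes. EZH2, its methyltransferase, went from 14.02 ± 1.12 to 5.52 ± 0.325 CPM (-1.35 ± 0.17, adjusted p = 5.9e-07), and RBBP4 (-0.999 ± 0.0745) and AEBP2 (-0.66 ± 0.11) fell. EPOP rose from 2.09 ± 0.449 to 17.4 ± 3.17 CPM (3.06 ± 0.20, adjusted p = 3.7e-11). EED was called (-0.29 ± 0.12, adjusted p = 0.042) but not without control (DMSO) replicate 3 (adjusted p = 0.317) and not in 3 further fits without 1 library. SUZ12 (-0.23 ± 0.11, adjusted p = 0.063) was not called.

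Of 16 genes of Polycomb repressive complex 1, 5 were higher and 6 lower (all genes, 32.5% and 36%, median -0.23), shares close to those of all genes. CBX2 fell (-1.38 ± 0.24), as did PHC1 (-0.68 ± 0.20) and PCGF5 (-0.55 ± 0.13), PCGF3 (0.67 ± 0.09) and CBX7 (0.49 ± 0.12) rose, and BMI1 read 2.54 ± 0.689 and 2.10 ± 0.851 CPM. Of 14 Trithorax, MLL and H3K27 demethylase genes, 2 were higher and 3 lower (all genes, 32.5% and 36%, median -0.08), fewer than the shares of all genes would give. KDM6B, which removes methyl groups from histone H3, rose (1.07 ± 0.18, adjusted p = 2.2e-05), as did DOT1L (0.94 ± 0.15), while PSIP1 (-2.08 ± 0.13) and WDR5 (-0.34 ± 0.09) fell. KMT2A, the MLL methyltransferase, read 36.6 ± 16.1 and 28.5 ± 0.678 CPM and was called lower only without control (DMSO) replicate 3 (-0.64, adjusted p = 0.00741).

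Retinoic acid, an inducer of HOX genes in the embryo, is handled by 18 listed genes, of which 13 were tested, 1 was higher and 10 were lower (all genes, 32.5% and 36%, median -0.93). CYP26B1, which breaks retinoic acid down, rose from 0.549 ± 0.164 to 28.02 ± 1.75 CPM (5.64 ± 0.22, adjusted p = 1.1e-14) and stood at 3.04 ± 0.504 and 3.26 ± 0.439 CPM in senescent cells with IMP1088 and DDD86481. The retinoid-binding CRABP2 (-3.70 ± 0.21) and the retinal reductase DHRS3 (-3.64 ± 0.15) fell. ALDH1A1, which makes retinoic acid, had 0 counts in senescent (DMSO) cells and 0.488 ± 0.0407 CPM in control, at least 2.73-fold lower.

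Of 18 mesenchyme position factors, 15 were tested, 1 was higher and 10 were lower (all genes, 32.5% and 36%, median -1.43). TBX4, a lung mesenchyme and hindlimb factor, went from 15.1 ± 4.05 to 0.638 ± 0.100 CPM (-4.57 ± 0.29), and TCF21, a lung mesenchyme factor, from 73.0 ± 3.27 to 5.57 ± 0.846 CPM (-3.71 ± 0.11). PRRX2 (-3.24 ± 0.18) and GATA6 (-2.39 ± 0.25) fell too. TCF21 was higher with IMP1088 and DDD86481 in control cells (1.24 ± 0.09 and 1.17 ± 0.09) and in senescent cells (1.01 ± 0.11 and 0.96 ± 0.11). Most of the list went the other way in senescent cells, where each inhibitor gave 10 of the 15 as lower, 2 as higher. The list medians there were -0.72 (IMP1088) and -0.67 (DDD86481). Among all tested genes, 23.9% (IMP1088) and 23.1% (DDD86481) were lower there, 20.6% and 20.1% higher. In control cells IMP1088 gave 4 of the list as higher, 3 as lower, and DDD86481 gave 3 and 2.

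Of 15 cluster neighbours and ParaHox genes 5 were tested, 0 were higher and 3 were lower by edgeR (all genes, 32.5% and 36%, median -0.61). SKAP2, a neighbour of the HOXA cluster, fell by 0.61 ± 0.09 (56.1 ± 3.81 to 36.8 ± 2.63 CPM), SMUG1, near HOXC, by 0.61 ± 0.15 and CDX1, from 0.820 ± 0.422 CPM, was at least 4.59-fold lower. Of 16 non-coding RNAs of the clusters, 5 were tested, 0 were higher and 4 lower (all genes, 32.5% and 36%, median -1.56). HOTAIRM1, a HOXA cluster transcript, fell from 155, 187 and 161 to 65, 53 and 70 counts (-0.96 ± 0.19, adjusted p = 0.00019) and was higher with IMP1088 (0.69 ± 0.20) and DDD86481 (1.08 ± 0.20) in senescent cells. HOTAIR had 2 counts in 1 control library and 0 in all others, and HOTTIP had 0 in all 18.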

How the data were processed

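RNA was sequenced from 18 libraries of 6 groups. The authors deposited raw read counts per gene, and the submitters' processing notes name DRAGEN, STAR 2.7.8a, DESeq2 1.32.0 and hg38, whereas the study's methods name an older build and other tools, so coordinates are printed for RefSeq gene starts only and not for the counted features. The methods name a directional kit and a first-strand alignment setting, and the strand option of the counting is not given in the sources used here.

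The counts were analysed as deposited with edgeR 4.0.16 in R 4.3.3. Genes were kept by filterByExpr (14341 of 28266 rows, 99.962% of counts), scaled by TMM, fitted in 1 quasi-likelihood model of 6 groups and adjusted by Benjamini-Hochberg at 0.05. Standard errors are the absolute log2 fold change over the square root of F. Alternatives were DESeq2 1.42.0, its size factors, upper-quartile scaling, no filter, a mean of at least 1 CPM, a 2-fold threshold, a replicate block, only the groups compared and leaving out each library. On data simulated for the senescent against control comparison over 13996 genes, edgeR recovered 88 of the 100 simulated at 2-fold, 55 of the 100 simulated at 1.5-fold, and made 13 false calls.

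Exonic lengths and overlaps came from GENCODE on GRCh37 and starts from RefSeq GRCh38.p14. Paralogue ratios used a pseudocount of 0.5 counts. Floors cover counting error only, and the 95% intervals of fold changes come from the fit and include the spread between libraries. Same-numbered libraries deviated together in all 3 pairs (r above 0.1) for control DMSO and control IMP1088 (0.394, 0.123 and 0.231), the 2 inhibitors in control cells (0.101 to 0.27) and in senescent cells (0.117 to 0.126), and not in the other group pairs. No libraries were duplicates (chi-square between replicates over the number of genes, 5.26 or higher).

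Some results are not reported here. The HOX members reported are accounted for; members with a mean of at least 1 CPM in a group or a call are given with values. From each other list the 4 called genes with the largest change in senescent against control cells are named, with KMT2A, EZH2, EED, SUZ12, BMI1, CBX7, MEIS1, MEIS2, HOTAIRM1, HOTAIR and HOTTIP. The members and lists were chosen with earlier results of these data known.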

Additional observations from a re-analysis of the deposited data

Results flagged for a closer look

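The effect of an inhibitor differed between senescent and control cells by the interaction term of edgeR for 4 members with each compound, as log2 differences (senescent effect minus control effect). Over all genes, 14.2% were lower and 12.1% higher with IMP1088, and 15.9% and 14.4% with DDD86481. Nothing is read from the number of members called. With IMP1088 the members were HOXB5 (-0.76), HOXB8 (-0.76), HOXB3 (-0.72) and HOXB2 (-0.44). With DDD86481 they were HOXB5 (-0.61), HOXB8 (-0.66), HOXB3 (-0.66) and HOXA2 (-2.03). The HOXB2 difference with IMP1088 ended in 11 of 12 fits that left out 1 library, and it stayed called without control (DMSO) replicate 3. HOXB3 lost its IMP1088 call in 5 of 12 such fits and its DDD86481 call in 5 of 12. The HOXA2 difference rests on 3, 5 and 10 counts in senescent (DMSO) and 1, 1 and 3 counts in DDD86481 libraries, and it was not called without senescent (DMSO) replicate 3 (-1.52; adjusted p = 0.13). Groups of 3 libraries are too small for a check of single outlying libraries.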

How the results depend on the processing

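No called HOX fold change reversed its sign under any alternative. Testing beyond 2-fold left 10 of 16 members called in senescent against control cells, 1 with IMP1088 and 0 with DDD86481 in senescent cells, 1 and 0 in control cells and 0 in both interactions. At an unadjusted p under 0.05 this edgeR test gave 2, 1, 0 and 1 members for the counts of 0 (DDD86481 in senescent cells, DDD86481 in control cells, and the IMP1088 and DDD86481 interactions), and no other tool was run with this threshold. Over all genes that test left 3190, 522, 450, 257, 242, 250 and 247 called in the same order, against 9827, 6374, 6189, 4829, 5242, 3761 and 4351. With only the groups compared, 4 members were called for IMP1088 and 2 for DDD86481 in control cells (all genes, 2716 and 2842), and 2 in the DDD86481 interaction (all genes, 3273). Without a filter 1 gene differed between the inhibitors in senescent cells. Upper-quartile scaling put the median of all genes at -0.21 rather than -0.05 in senescent against control cells, ended the HOXB5 rise, the call of HOXA3 for DDD86481 in control cells (7 to 6 members) and that of HOXB2 in the IMP1088 interaction (4 to 3), and gave a HOXA ratio of 0.106 rather than 0.118.

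Leaving out 1 library gave 3 to 7 called members for IMP1088 and 2 to 7 for DDD86481 in control cells, 2 to 5 and 2 to 6 in the interactions, 15 to 16 in senescent against control cells, and 9 to 10 and 7 to 10 for IMP1088 and DDD86481 in senescent cells. Over all genes the same fits called 3505 to 5892 and 3773 to 6317 in control cells, and 2738 to 5242 and 3419 to 5796 in the interactions. They called 9239 to 10027 genes in senescent against control cells, and 5454 to 5617 and 5282 to 5812 in senescent cells. The lowest interaction counts of 2 came without control IMP1088 replicate 1 or 2, senescent (DMSO) replicate 2 or senescent IMP1088 replicate 3, and without senescent DDD86481 replicate 1, control DDD86481 replicate 2 or senescent (DMSO) replicate 3. With the replicate block the members called were 16, 10, 10, 7, 7, 3 and 4 (all genes, 9913, 6510, 6259, 5003, 5412, 3974 and 4555). The block changed no member's call but that of HOXB2 in the IMP1088 interaction. Depth limits, among others, HOXA2, HOXA6, HOXA11 and HOXB9, which rest on 0 to 22 counts in at least 1 group of each fold. It also limits HOXA3, with 13 to 15 counts per senescent (DMSO) library, and HOXA7, with 10 to 18 per senescent library with IMP1088.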
